A study of Homo sapiens with 12 samples.

Results

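The collagen chain genes are the protein-coding genes whose symbol names a collagen alpha chain (COL, a type number, A, a chain number). COL9A2 also fits this definition but is not reported here, and it is left out of every collagen count and sum below. Without it, GENCODE v44 placed 43 of them among the 58302 gene identifiers of the count table. Of these, 24 were counted highly enough to be tested, and 12 had a mean level of at least 1 RPKM (reads scaled to gene length and library size). The abundant chains were those of type VII, type IV, type XII and type VI collagen. After 24 hours of BMP-on conditions, COL1A1 rose in MIB1 KO cells to 260% of its BMP-off level. COL4A3, COL4A4 and COL12A1 fell there to between 60.7% and 73.4% of theirs. In WT cells the levels were 165% for COL1A1 and 80.7%, 77.9% and 95.1% for COL4A3, COL4A4 and COL12A1. None of these WT changes passed the test at the settings used throughout, and no difference between the KO and WT responses did. With each of the 12 libraries left out in turn, the KO changes of COL1A1 and COL4A4 always passed. That of COL4A3 passed in 7 of these fits and that of COL12A1 in 9. On log2 RPKM values the KO changes of COL1A1 and COL12A1 passed, and those of COL4A3 and COL4A4 did not.

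NCIH838 is a lung cancer cell line. The MIB1-iKO cells are a single-cell clone of it that carries a guide against MIB1, a ubiquitin ligase gene, and a Cas9 gene switched on by doxycycline (Dox), so every group shares these insertions. Cells grew for 3 days in 50 nM LDN, an inhibitor of BMP type I receptors, without Dox (WT) or with 0.5 µg/ml Dox (KO). They then spent 24 hours in 10 ng/ml BMP4, with LDN still present (BMP-off) or replaced by DMSO (BMP-on). The 4 groups, WT BMP-off, WT BMP-on, KO BMP-off and KO BMP-on, had 3 libraries each. Every KO library received Dox and no WT library did, so the effects of Dox, of Cas9 cutting and of MIB1 loss cannot be told apart. Both BMP conditions contained BMP4, so BMP-on against BMP-off is the removal of LDN. The labels do not say whether replicates are separate cultures, so p-values measure only the spread between these libraries.

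Collagens are built from alpha chains that wind into triple helices, and the chains that a cell makes decide which types it can assemble. Fibril-forming types carry the tension of connective tissue, type IV forms the network of basement membranes under epithelia, and other types anchor, coat or link these structures. Epithelial and carcinoma cells are best known for basement membrane and anchoring collagens, and fibroblasts for the fibril-forming ones. BMP receptors signal through SMAD1/5/9 proteins, which bind short GC-rich motifs and the SMAD box in DNA.

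The 6 type IV genes lie in 3 head-to-head pairs whose members start on opposite strands, so that each pair shares the stretch between its start sites. The pair COL4A4/COL4A3 carried the falls described below, and the stretches are printed to set it beside the other pairs. They come from the RefSeq promoter windows of GRCh38.p14, read on the plus strand, with exons of GENCODE v44 left out. For each pair only the longest run free of exons is printed, cut to its last 250 bases where longer. The printed lengths are 190, 100 and 250 bases in the order below, so the marks do not cover all bases between the start sites. Capitals mark GGCGCC, a motif read alike on both strands and known for SMAD1/5 binding, or CAGAC, the SMAD box, which appears as GTCTG on the other strand. Both motifs were searched on both strands, and they do not overlap in these stretches.
COL4A4/COL4A3, chr2:227164206-227164395: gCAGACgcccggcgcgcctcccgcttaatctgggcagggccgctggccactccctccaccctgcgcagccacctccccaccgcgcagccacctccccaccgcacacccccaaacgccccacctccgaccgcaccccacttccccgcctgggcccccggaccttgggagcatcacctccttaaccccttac
COL4A1/COL4A2, chr13:110307158-110307257: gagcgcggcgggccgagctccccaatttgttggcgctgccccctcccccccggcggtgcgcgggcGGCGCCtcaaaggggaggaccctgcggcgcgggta
COL4A6/COL4A5, chrX:108439588-108439837: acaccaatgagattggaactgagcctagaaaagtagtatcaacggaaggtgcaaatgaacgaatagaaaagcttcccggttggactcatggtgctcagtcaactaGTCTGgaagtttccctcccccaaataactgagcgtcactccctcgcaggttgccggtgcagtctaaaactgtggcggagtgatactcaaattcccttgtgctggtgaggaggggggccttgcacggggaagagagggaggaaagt

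By RefSeq, the start sites of COL4A4 and COL4A3 have 418 bases between them, those of COL4A1 and COL4A2 126 bases and those of COL4A6 and COL4A5 379 bases. GENCODE v44 gives other outermost starts, by which the first stretch lies within COL4A4 and the second within COL4A2, in both cases outside exons. The printed stretches had a GC content of 72.6%, 78.0% and 51.2%. Over windows of 300 bases around the start sites, GGCGCC was present in 19.2% of all 35116 RefSeq windows and CAGAC in 45.3%. RefSeq windows were matched for 20 of the 24 tested collagen genes, and of their 25 windows 9 held GGCGCC and 12 held CAGAC. COL1A1 and COL6A1 had no entry. The windows of both COL4A3 and COL4A4 held GGCGCC, outside the printed stretch. A match describes the letters and not a bound site.

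The libraries held between 19124010 and 29498000 counts. MIB1 was at 158 ± 16.3 CPM (counts scaled to library size by TMM, mean ± SD, n = 3) in WT BMP-off and 162 ± 11.4 in WT BMP-on, against 33.7 ± 1.05 and 32.0 ± 0.986 in the KO groups. Of 5 epithelial markers, 4 passed the filter on low counts and KRT19 had at most 2 counts. The lung markers NKX2-1, SFTPB, SFTPC and SCGB1A1 had at most 2 counts and NAPSA 6 to 27, so the labelled lung origin was hardly visible in them. Of 6 fibroblast markers, 3 passed the filter, led by THY1 at 8.65 RPKM, while DCN and FAP had at most 3 counts. The summed fibroblast level was 8.38 to 10.0 RPKM over all libraries, 8.38 to 9.49 in KO BMP-off and 8.66 to 9.18 in KO BMP-on. Endothelial sums were 0.0880 to 0.272 RPKM and leukocyte sums 0.304 to 0.612 RPKM, with PTPRC at 0. Libraries also differed in how counts followed the GC content of the transcript. The rank correlation of a library's deviation from the mean of all libraries with GC content ran from -0.66 to 0.19 in KO BMP-off and from 0.10 to 0.46 in KO BMP-on, against -0.38 to 0.25 in WT BMP-off and 0.07 to 0.32 in WT BMP-on. Of the 24 tested collagen genes, 22 had a GC content above 47.8%, the median of all tested genes, so values corrected for the GC trend are given beside most collagen results.

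COL7A1, the chain of the anchoring fibrils that tie epithelia to the tissue below, had the highest level per length, 17.2 RPKM on average over the 12 libraries and 19.9% of the summed collagen level. Its range of 10.7 to 27.2 RPKM overlapped those of COL4A2 (11.0 to 16.3) and COL4A1 (11.1 to 13.3), the chains of the common basement membrane network. The range of COL12A1, a chain that coats fibrils, was 5.76 to 11.5 RPKM, and that of COL4A5, another network chain, 5.76 to 7.54 RPKM. These 5 genes made up 68.7% of the summed collagen level, and the first 12 made up 96.0%. The next 7, in falling order, were COL6A1, COL6A2, COL1A1, COL27A1, COL18A1, COL5A3 and COL9A3, with means from 5.42 down to 1.48 RPKM and with overlapping ranges between neighbours. The other 12 tested genes had means from 0.564 RPKM (COL16A1) down to 0.0889 RPKM (COL11A2).

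**Figure D1:**
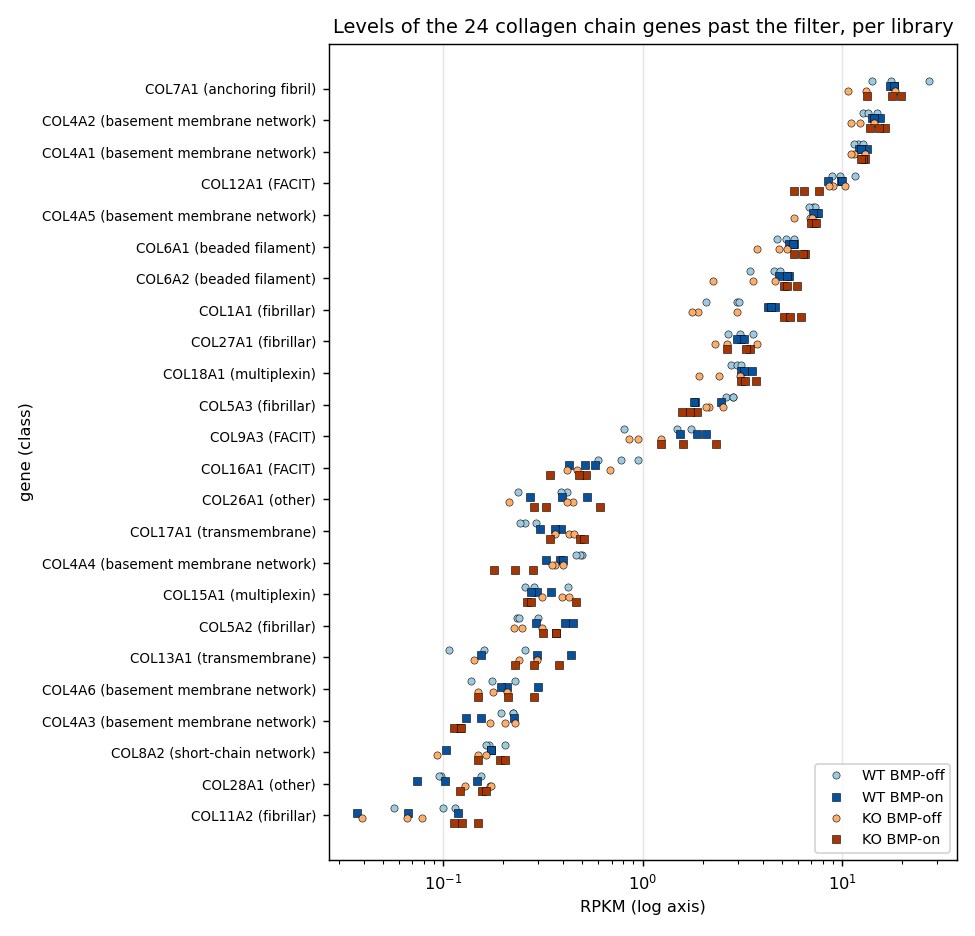
Level of each of the 24 tested collagen chain genes in RPKM on a log axis, with 1 point per library, coloured by group, and the genes ordered by mean. COL7A1, COL4A2 and COL4A1 lie above 10 RPKM in all libraries, and 12 genes have means under 1 RPKM.

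The summed collagen level was 88.5 ± 7.82 RPKM in WT BMP-off, 91.0 ± 1.89 in WT BMP-on, 76.8 ± 10.2 in KO BMP-off and 89.4 ± 6.32 in KO BMP-on (SD, n = 3). Within KO BMP-off the libraries were at 70.8, 70.9 and 88.6 RPKM, so the third lay inside the range of the other groups and the first and second below it. These are also the KO BMP-off libraries with the lowest GC correlations, -0.38 and -0.66, against 0.19 in the third, and the part of this trend in the sums was not tested. COL7A1 varied most between replicates among the abundant chains. In WT BMP-off it was at 124, 243 and 157 CPM, so that the second library alone lay above all other libraries. It was called in no comparison.

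By class, all 6 basement membrane network genes, the anchoring fibril gene and both multiplexins, which are cut to release fragments such as endostatin, passed the filter. Of the fibril-forming genes 5 of 11 did, of the beaded filament genes of type VI 2 of 5, of the fibril-associated FACIT genes 3 of 9, of the transmembrane genes 2 of 4 and of the short-chain network genes 1 of 3. COL26A1 and COL28A1, which belong to none of these, passed as well. The 19 genes that did not pass were COL1A2, COL2A1, COL3A1, COL5A1, COL6A3, COL6A5, COL6A6, COL8A1, COL9A1, COL10A1, COL11A1, COL14A1, COL19A1, COL20A1, COL21A1, COL22A1, COL23A1, COL24A1 and COL25A1. None of these had more than 8 counts in a library. COL9A1, COL19A1 and COL22A1 had 0 counts in every library, which allows up to 3 counts, or 0.103 to 0.157 CPM depending on the library, for counting error only.

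Several expressed chains lacked the usual partner of their trimer. COL1A1 had 275 to 1071 counts per library, while COL1A2, the other chain of common type I collagen, had 0 to 5. COL6A1 and COL6A2 had 368 to 702 and 229 to 674 counts, while COL6A3, the largest of the common type VI chains, had 0 to 4. COL5A2 had 35 to 80 counts and COL5A3 180 to 460, against 1 to 8 for COL5A1, the main chain of type V. COL9A3 had 49 to 147 counts with COL9A1 at 0, and COL11A2 6 to 25 counts with COL11A1 at 0 or 1. COL9A2 is not reported here, so the partners of COL9A3 were not all examined.

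Within the head-to-head pairs the balance of the chains differed. COL4A1 stood at 0.848 to 0.947 times the RPKM of COL4A2 as a mean of each group. COL4A3 stood at 0.445 to 0.549 times the level of COL4A4, both under 0.5 RPKM in every library. COL4A5 exceeded COL4A6 by 32.4 to 40.4 times in the group means. COL4A1 and COL4A2 overlap on opposite strands, as do COL18A1 and SLC19A1 (621 to 1256 counts), COL9A3 and TCFL5 (317 to 556 counts), and COL4A3 and the lncRNA MFF-DT (14 to 40 counts). It is not stated which of the study's library kits was used or whether counting kept the strand, so reads in those overlaps may be shared.

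Calls required an adjusted p no higher than 0.05 (edgeR quasi-likelihood test, Benjamini-Hochberg over all 17188 tested genes). For the BMP response in WT cells, 0 of 24 collagen genes were called against 3.92% of all tested genes, with 6 at an unadjusted p under 0.05 (15.3% of all genes). DESeq2 and limma-voom called 2 each, COL1A1 and COL5A3, against 5.44% and 4.11% of all genes. For the BMP response in KO cells, 7 of 24 were called against 22.0% of all genes. Of these 4 were higher (11.1% of all genes) and 3 lower (10.9%), and 2 of the higher ones, COL1A1 and COL11A2, also met the study's limit of a log2 fold change of 1 (1.41% of all genes). The share of 7 in 24 is close to that of all genes. The count of 7 became 12 without KO BMP-off replicate 3, 4 without KO BMP-off replicate 1 or KO BMP-on replicate 3, and 3 without KO BMP-on replicate 1, while the share of all genes called in these fits moved to 30.4%, 14.9%, 18.0% and 13.2%. DESeq2 and limma-voom called 9 each, against 25.5% and 24.3% of all genes, and both sets held COL4A2, COL5A3 and COL6A2. In these bulk libraries fewer cells expressing a gene and less RNA per cell cannot be told apart. With KO BMP-off libraries 2 and 3 both left out, an alternative chosen after seeing the data that leaves 1 library in that group, 7 were again called, against 14.5% of all genes (1343 higher and 1298 lower). All 7 were higher, COL1A1, COL6A1 and COL18A1 among them, and COL12A1, COL4A3, COL4A4 and COL11A2 were not called. The median log2 fold change of the 24 was 0.08 in WT and 0.27 in KO cells, against 0.00 and 0.01 over all tested genes.

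With the GC correction, the calls were 4 of 24 in WT cells, against 8.16% of all genes, and 7 of 24 in KO cells, against 23.8%. The split in KO cells turned from 4 higher and 3 lower to 2 higher and 5 lower, while over all genes it went from 1903 higher and 1874 lower to 1485 and 2609. The median over the collagen genes became -0.01 in WT and -0.03 in KO cells. The higher median in KO cells was not present after the correction. The correction takes the trend with GC content out of each library, and 22 of the 24 genes lie above the median GC content. A shift of the median is therefore partly built into the method. Uncorrected, the log2 fold changes in KO cells and the GC contents of the 24 genes had a Pearson r of 0.52 and a Spearman rho of 0.50, which are across genes of the same libraries. They were 0.19 and 0.12 with the correction, a fall that follows from removing the trend and is no test of it. The 4 genes called higher had a GC content of 61.6% to 67.2%, and the 3 called lower 46.3% to 49.5%.

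**Figure D2:**
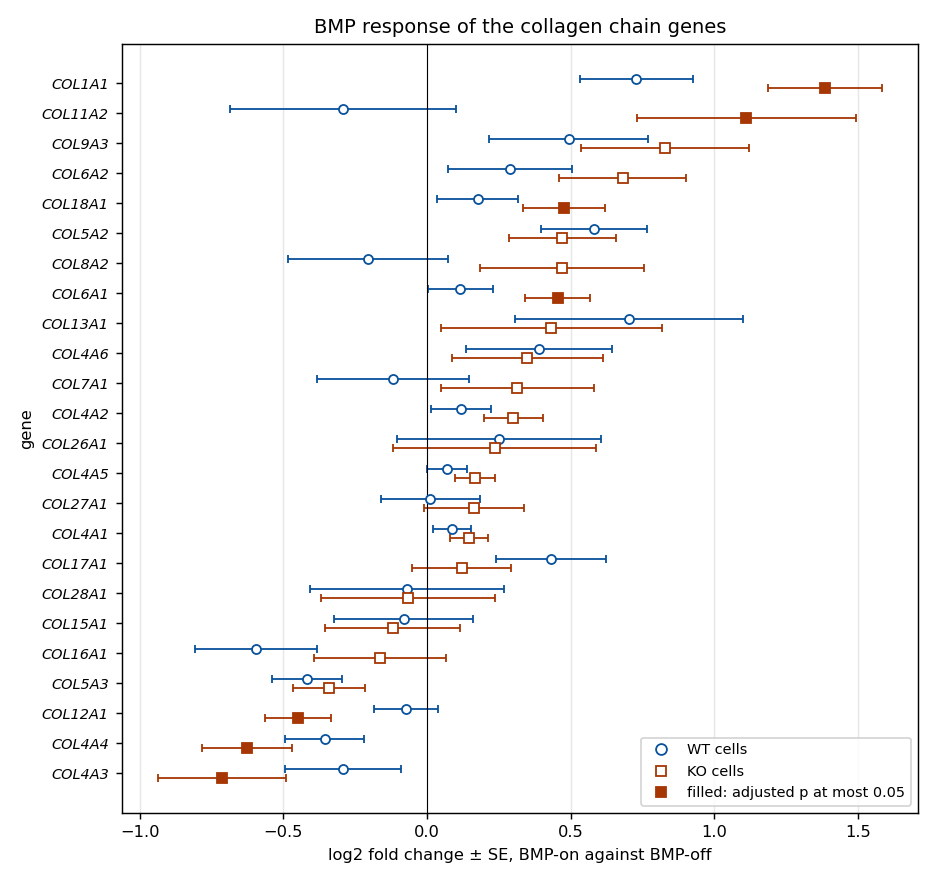
Log2 fold change (± SE) of BMP-on against BMP-off for each tested collagen chain gene in WT cells (circles) and KO cells (squares), with filled symbols where the adjusted p was at most 0.05. Filled symbols occur in KO cells only: COL1A1, COL11A2, COL18A1 and COL6A1 to the right of 0, and COL12A1, COL4A4 and COL4A3 to the left.

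**Figure D3:**
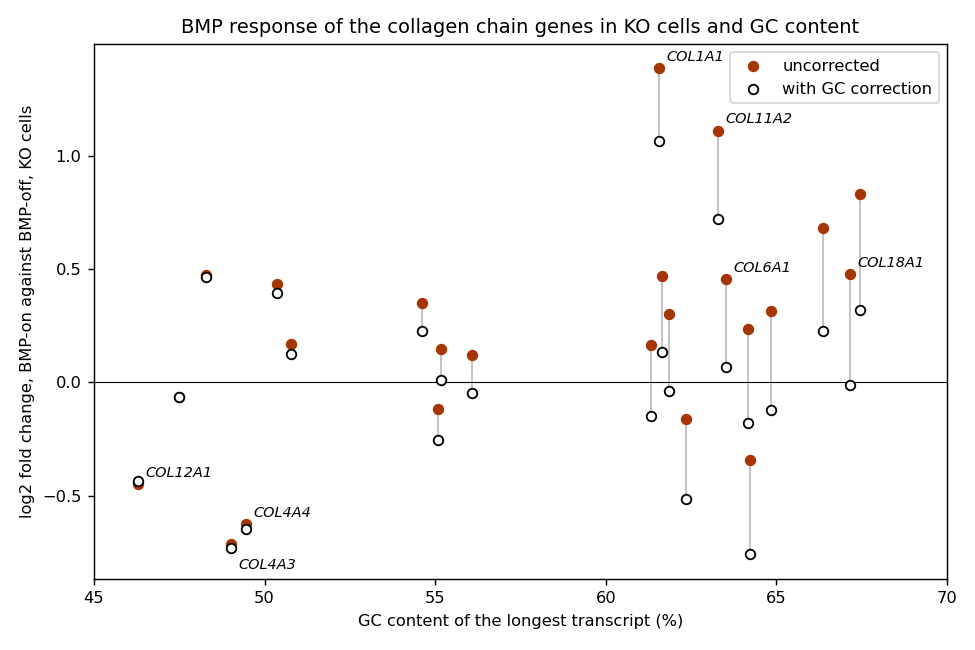
Log2 fold change of BMP-on against BMP-off in KO cells against the GC content (%) of the longest transcript, uncorrected (filled) and with the GC correction (open), joined for each gene, with the 7 called genes named. COL18A1, COL6A1 and COL11A2 (GC content 63.3% to 67.2%) move toward 0 with the correction. COL12A1, COL4A3 and COL4A4 (46.3% to 49.5%) change little, and they lie near the median of all tested genes (47.8%), where the correction is small for any gene.

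COL1A1 (chr17:50184101-50201632, minus strand), the main chain of the commonest fibril-forming collagen, had the largest response. It was at 13.3, 19.4 and 19.6 CPM in WT BMP-off and at 30.0, 27.7 and 28.6 CPM in WT BMP-on. In KO cells it was at 12.1, 11.1 and 19.2 CPM with BMP-off and at 41.0, 33.3 and 35.8 CPM with BMP-on. All 6 BMP-on libraries lay above all 6 BMP-off libraries, and the KO BMP-on libraries were the highest of all. In KO cells the log2 fold change was 1.39 (SE 0.20, edgeR, Benjamini-Hochberg adjusted p = 0.000602), and 1.07 with the GC correction (adjusted p = 3.23e-07). It was called in each of the 12 fits that left out 1 library, with values from 1.25 to 1.66.

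In WT cells COL1A1 had a log2 fold change of 0.73 (SE 0.20, edgeR adjusted p = 0.0728), which missed the threshold. It was called in 9 of 26 alternatives, among them DESeq2 (adjusted p = 0.0295), limma-voom (0.00601), the filter of 10 counts (0.0385) and a fit of the WT libraries alone (0.00501). With the GC correction it was 0.64 (adjusted p = 0.000365). It was also called without KO BMP-off replicate 2 (adjusted p = 0.0452) or replicate 3 (adjusted p = 0.00252), libraries of neither group compared. The difference between the KO and WT responses was 0.66 (95% interval 0.02 to 1.30, adjusted p = 0.446, edgeR), and 0.43 with the GC correction (adjusted p = 0.191). Without KO BMP-off replicate 3 it was 0.92 (edgeR adjusted p = 0.0328), so a difference was called only with that library left out.

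**Figure D4:**
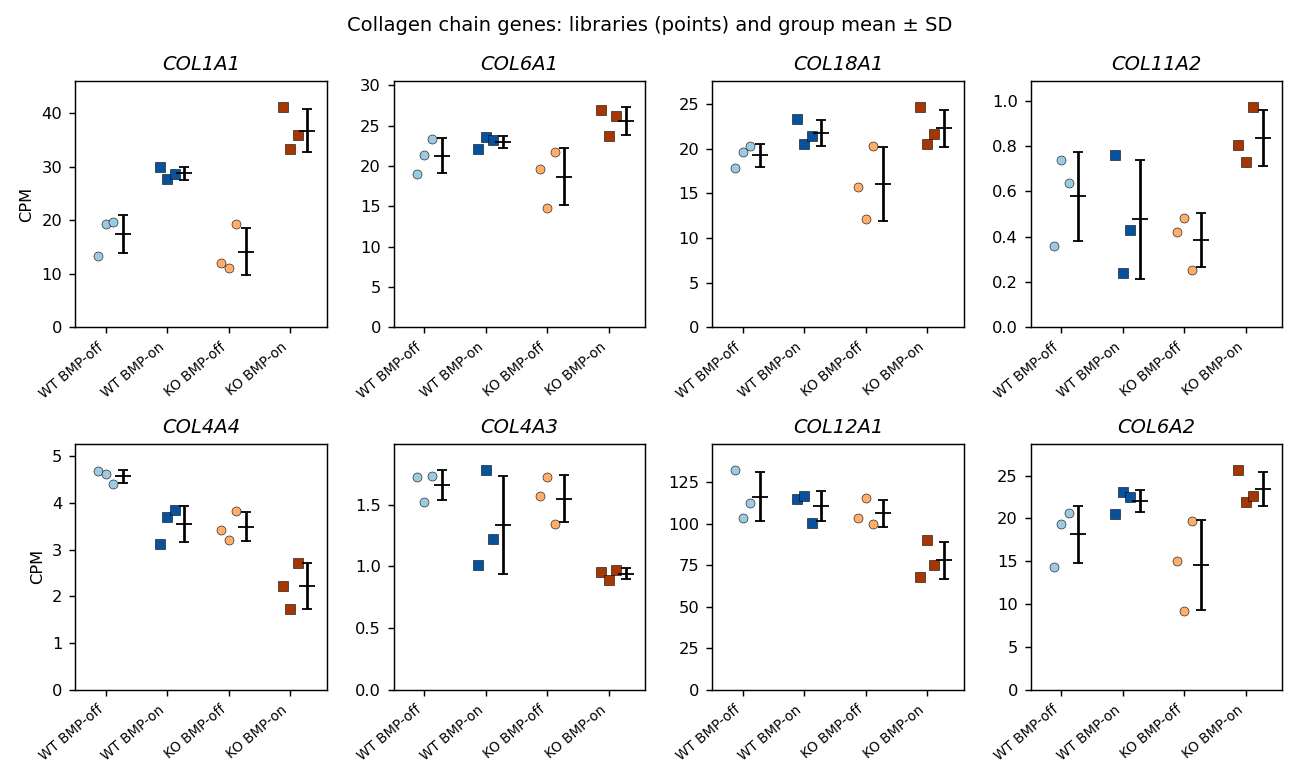
CPM of COL6A2 and the 7 collagen chain genes that passed the test for the KO response to BMP-on, with a point per library and the mean ± SD of each group (n = 3). COL1A1 is higher in all BMP-on than in all BMP-off libraries, and COL4A4, COL4A3 and COL12A1 are lowest in KO BMP-on.

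The type IV chains of specialised basement membranes, COL4A4 and COL4A3, moved the other way. COL4A4 (chr2:227002714-227164453, minus strand) was at 4.67, 4.61 and 4.41 CPM in WT BMP-off and at 3.12, 3.70 and 3.84 CPM in WT BMP-on. In KO cells it was at 3.42, 3.21 and 3.83 CPM with BMP-off and at 2.22, 1.72 and 2.72 CPM with BMP-on. BMP-on libraries lay below BMP-off libraries within each genotype, and KO below WT within each BMP condition. The response in KO cells was -0.63 (SE 0.16, edgeR adjusted p = 0.00955; -0.65 with the GC correction), and it was called whichever of the 12 libraries was omitted. On log2 RPKM values, tested with limma, the response was not called. In WT cells it was -0.36 (adjusted p = 0.203), and the difference of the responses was -0.27 (95% interval -0.75 to 0.22, adjusted p = 0.636).

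COL4A3 (chr2:227164624-227314792, plus strand) was at 1.73, 1.52 and 1.73 CPM in WT BMP-off, at 1.01, 1.78 and 1.22 in WT BMP-on, at 1.57, 1.73 and 1.35 in KO BMP-off, and at 0.958, 0.888 and 0.971 in KO BMP-on. The KO BMP-on libraries were the lowest, from 17 to 25 counts, and the WT groups overlapped. The response in KO cells was -0.71 (SE 0.22, edgeR adjusted p = 0.0303; -0.73 with the GC correction). The call was lost without KO BMP-off replicate 1 or 2 or any of the KO BMP-on replicates, with adjusted p up to 0.0962. In WT cells the value was -0.29 (adjusted p = 0.554).

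The paired genes COL4A1 and COL4A2 were not called in either genotype at the settings used throughout. Their KO responses were log2 fold changes of 0.15 (edgeR adjusted p = 0.125) and 0.30 (adjusted p = 0.0568), and with the GC correction 0.01 and -0.04 (adjusted p = 0.907 and 0.638). COL4A2 was called higher in KO cells by DESeq2 and limma-voom, with scaling by library size alone or the upper quartile, with no filter and with the filter of 10 counts, all without the GC correction. In WT cells the log2 fold changes were 0.09 and 0.12 (adjusted p = 0.590 and 0.651). COL4A5 had a KO response of 0.17 (adjusted p = 0.101), and 0.13 with the GC correction (adjusted p = 0.142).

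COL12A1 (chr6:75084326-75206267, minus strand), which belongs to the FACIT class, fell with BMP-on in KO cells. It was at 132, 104 and 113 CPM in WT BMP-off and at 115, 117 and 100.2 CPM in WT BMP-on, groups that overlapped. It was at 103, 116 and 99.7 CPM in KO BMP-off and at 68.0, 90.4 and 75.4 CPM in KO BMP-on, whose libraries lay below all others. The KO response was -0.45 (SE 0.11, edgeR adjusted p = 0.0165; -0.44 with the GC correction), against -0.07 in WT cells (adjusted p = 0.827). Omitting KO BMP-off replicate 2, KO BMP-on replicate 1 or KO BMP-on replicate 3 ended the call (adjusted p = 0.0724, 0.0670 and 0.0570). The difference of the responses was -0.38 (95% interval -0.75 to -0.01, adjusted p = 0.445).

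The calls of the type VI gene COL6A1, of COL18A1 and of COL11A2 were not kept with the GC correction. The correction ignores the groups, and the GC trend differed between KO BMP-off and KO BMP-on libraries. A trend of the libraries and a response that follows GC content therefore cannot be told apart here. COL6A1 (chr21:45981770-46005050, plus strand) was at 19.6, 14.8 and 21.7 CPM in KO BMP-off and at 26.9, 23.7 and 26.1 CPM in KO BMP-on, groups that did not overlap. Its response of 0.45 (SE 0.11, edgeR adjusted p = 0.0102) became 0.07 (adjusted p = 0.492) with the correction. Its partner COL6A2 was at 9.20 to 19.7 CPM in KO BMP-off against 21.9 to 25.6 CPM in KO BMP-on, with 0.68 (SE 0.22, adjusted p = 0.0501), and 0.22 with the correction (adjusted p = 0.0404). In WT cells COL6A1 and COL6A2 had 0.12 and 0.29 (adjusted p = 0.696 and 0.597).

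COL18A1 (chr21:45405165-45513720, plus strand), the source of endostatin, was at 15.8, 12.1 and 20.4 CPM in KO BMP-off and at 24.6, 20.6 and 21.7 CPM in KO BMP-on. The highest BMP-off library lay just below the lowest BMP-on library. Its response of 0.48 (SE 0.14, edgeR adjusted p = 0.0300) was -0.01 (adjusted p = 0.926) with the correction. Omitting KO BMP-off replicate 1, KO BMP-on replicate 1 or KO BMP-on replicate 3 ended the uncorrected call (adjusted p = 0.0790, 0.110 and 0.0519).

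COL11A2 (chr6:33162681-33192499, minus strand), a fibril-forming chain known from cartilage, had 12, 12 and 6 counts in KO BMP-off and 21, 14 and 25 in KO BMP-on. In WT it had 10, 17 and 14 counts with BMP-off and 18, 7 and 12 with BMP-on, so the WT groups overlapped. In CPM the KO groups did not. The KO response of 1.11 (SE 0.38, edgeR adjusted p = 0.0466) was 0.72 (adjusted p = 0.190) with the GC correction. It stayed called for 4 of the 12 libraries when each was omitted, and was lost without WT BMP-off replicate 2 or 3, WT BMP-on replicate 3, KO BMP-off replicate 1 or 3 or any KO BMP-on replicate (adjusted p up to 0.136).

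With the GC correction edgeR also called COL16A1 and COL5A3 in both genotypes, COL5A2 and COL1A1 in WT cells and COL6A2 in KO cells. COL16A1, COL5A3 and COL5A2 are described after their values were seen. Without the correction, COL5A3 was called in both genotypes by DESeq2 and limma-voom, COL16A1 in WT cells with no filter, and COL5A2 in WT cells without WT BMP-on replicate 3. COL5A3, a less common type V chain, was at 16.5, 15.7 and 16.7 CPM in WT BMP-off against 10.8, 14.9 and 10.8 in WT BMP-on, and at 12.6, 11.9 and 15.1 CPM in KO BMP-off against 11.3, 9.40 and 10.3 in KO BMP-on. BMP-on lay below BMP-off within each genotype. Its log2 fold changes of -0.42 in WT and -0.34 in KO cells (edgeR adjusted p = 0.0669 and 0.0614) became -0.56 and -0.76 (0.00401 and 0.000136). COL16A1, another FACIT chain, went from -0.60 and -0.16 (adjusted p = 0.159 and 0.659) to -0.71 and -0.51 (0.00442 and 0.0315). COL5A2 had 0.58 in WT cells with and without the correction (adjusted p = 0.0459 and 0.0990).

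MIB1 KO against WT was compared within each BMP condition, and these comparisons use the same libraries as the responses above. With BMP-on, 2 of 24 collagen genes were called, against 3.67% of all genes, both lower in KO (2.34% of all genes). COL4A4 was at 62.5% of its WT level, a log2 fold change of -0.66 (SE 0.16, edgeR adjusted p = 0.0238), and COL12A1 was at 70.5%, or -0.51 (SE 0.11, adjusted p = 0.0314). Both were called with the GC correction, at -0.69 and -0.53, when 2 of 24 were called against 7.71% of all genes. The call of COL4A4 was lost without WT BMP-on replicate 2 or 3 or KO BMP-on replicate 1 or 2 (adjusted p up to 0.108). That of COL12A1 was lost without WT BMP-off replicate 3, WT BMP-on replicate 1 or 2, KO BMP-off replicate 1 or KO BMP-on replicate 1 or 3 (adjusted p up to 0.146). COL1A1 was at 128% of its WT level with BMP-on, with KO libraries above WT libraries, and a log2 fold change of 0.36 (SE 0.19, adjusted p = 0.454; 0.26 with the GC correction, adjusted p = 0.109). A fit of only the BMP-on libraries called it (0.36, adjusted p = 0.00113), beside COL4A4 and COL12A1, with 7.39% of all genes called. The median log2 fold change was 0.03 over the collagen genes and 0.00 over all genes.

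With BMP-off, edgeR called 0 of 24 collagen genes, against 0.0407% of all genes, and 0 with the GC correction, against 0.413%. There were 4 at an unadjusted p under 0.05 (10.2% of all genes), and DESeq2 and limma-voom called 0 each. The lowest p belonged to COL17A1, the hemidesmosome collagen of epithelia, named after its values were seen. It was at 1.47, 1.70 and 1.41 CPM in WT and at 2.48, 2.05 and 2.65 CPM in KO BMP-off, with 0.65 (SE 0.19, adjusted p = 0.342, edgeR; 0.71 with the GC correction, adjusted p = 0.0785). The medians were -0.13 over the collagen genes and -0.01 over all genes.

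For the difference between the KO and WT responses, edgeR called 0 of 24, against 0.0931% of all genes, and 0 with the GC correction, against 1.27%. There were 3 at an unadjusted p under 0.05 (10.6% of all genes), and DESeq2 and limma-voom called 0 each. The lowest p was that of COL11A2, at 1.41 (95% interval 0.14 to 2.67, adjusted p = 0.375, edgeR; 1.14 with the GC correction, adjusted p = 0.411), a gene of at most 25 counts. The response of a collagen gene in KO cells that passed the test is therefore not shown to differ from that in WT cells. The median difference was 0.09 over the collagen genes, -0.05 with the GC correction and 0.01 over all genes.

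The genes that modify, fold, cut, cross-link, degrade or bind collagens were taken as 62 genes in 6 lists, of which 48 were tested. In WT cells 2 were higher and 1 lower with BMP-on, against 3.92% of all genes called in either direction. In KO cells 9 were higher and 3 lower, against 11.1% and 10.9% of all genes, or 12 of 48 against 22.0%. With the GC correction 4 were higher and 5 lower in WT cells, and 11 higher and 8 lower in KO cells, against 8.16% and 23.8% of all genes. The median log2 fold change over the 48 was 0.04 in WT and 0.12 in KO cells. By list, the calls in KO cells were 2 higher and 1 lower of 13 for hydroxylation and glycosylation, 1 higher of 10 for folding and export, 3 higher of 5 for propeptide cleavage, 1 higher and 1 lower of 6 for cross-linking, 1 higher of 7 for degradation, and 1 higher and 1 lower of 7 for collagen receptors.

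LOX, the lysyl oxidase that starts the cross-links of collagen and elastin, rose in both genotypes. It was at 4.35, 3.91 and 3.37 CPM in WT BMP-off and at 7.85, 6.36 and 5.82 in WT BMP-on, and at 3.98, 4.34 and 4.33 in KO BMP-off and 10.2, 11.6 and 9.87 in KO BMP-on. Neither pair of groups overlapped, and KO BMP-on lay above all other libraries. The log2 fold change was 0.77 in WT (SE 0.13, edgeR adjusted p = 0.00258) and 1.32 in KO cells (SE 0.13, adjusted p = 1.81e-06), and with BMP-on KO exceeded WT by 0.66 (adjusted p = 0.00383). The difference of the responses was 0.55 (95% interval 0.12 to 0.98, adjusted p = 0.301).

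TGM2, a transglutaminase that cross-links matrix proteins, fell in both. It was at 87.9, 93.2 and 95.2 CPM in WT BMP-off, 62.1, 72.2 and 66.6 in WT BMP-on, 77.7, 68.3 and 88.5 in KO BMP-off and 52.4, 46.5 and 44.7 in KO BMP-on. BMP-on lay below BMP-off in each genotype, and KO BMP-on was the lowest group. The log2 fold change was -0.46 in WT (SE 0.09, edgeR adjusted p = 0.00661) and -0.71 in KO cells (SE 0.09, adjusted p = 5.64e-05), and KO against WT with BMP-on gave -0.48 (adjusted p = 0.00573). The difference of the responses was -0.25 (adjusted p = 0.491), and -0.34 with the GC correction (adjusted p = 0.0318).

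PCOLCE2, an enhancer of the enzyme that removes the C-terminal propeptide of fibrillar collagens, rose from 139 to 141 CPM to 160 to 168 CPM over the WT libraries, and from 134 to 142 CPM to 169 to 178 CPM over the KO libraries. Its log2 fold changes were 0.22 and 0.32 (edgeR adjusted p = 0.00478 and 5.61e-05). In KO cells ADAMTS14, which removes N-terminal propeptides, rose from 19 to 28 counts to 43 to 63 counts (log2 fold change 1.27, SE 0.22, adjusted p = 0.000614). TLL2, a proteinase of the same family as BMP1, rose from 15 to 18 counts to 20 to 40 counts (0.98, SE 0.25, adjusted p = 0.0115). P3H2, a prolyl hydroxylase of type IV chains, fell by 0.28 (SE 0.05, adjusted p = 0.00114), and ITGB1, the shared beta subunit of the collagen-binding integrins, by 0.14 (SE 0.04, adjusted p = 0.0348; -0.07 with the GC correction, adjusted p = 0.115), with overlapping groups. The other 5 called genes, P4HA2, P3H4, FKBP10, MRC2 and DDR1, rose by 0.17 to 0.64, and P3H4 was at -0.03 with the GC correction.

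**Figure D5:**
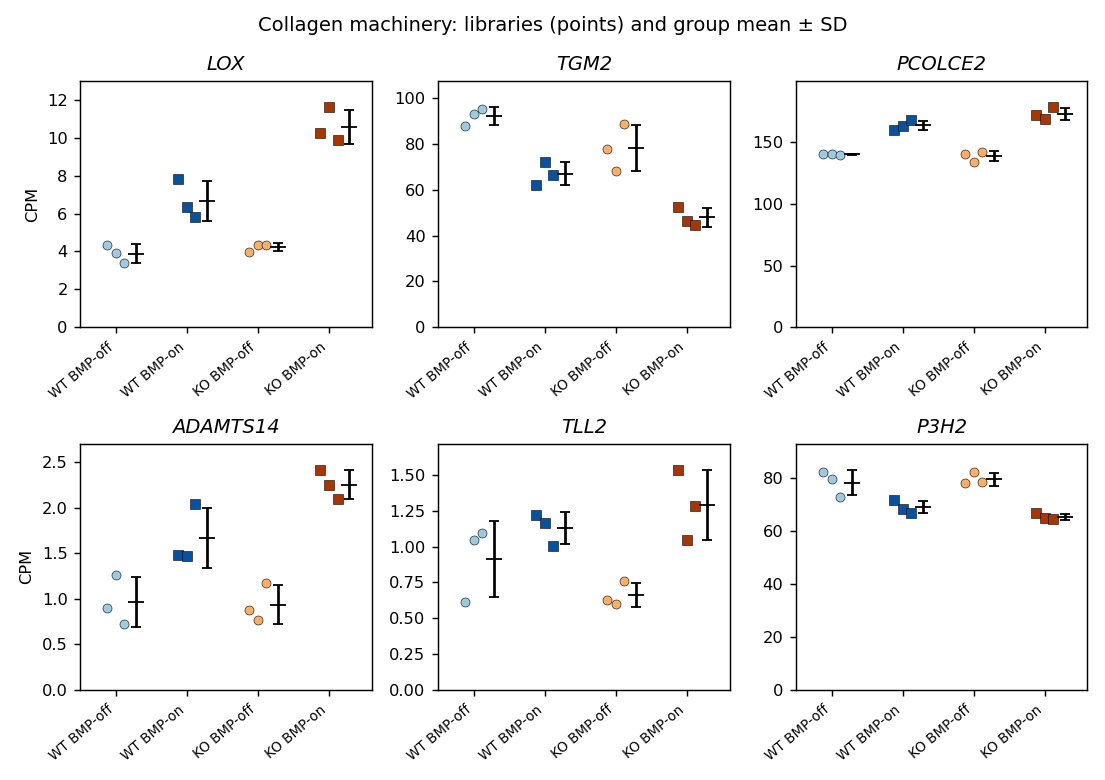
CPM of 6 genes of collagen processing and cross-linking, with a point per library and the mean ± SD of each group (n = 3). LOX, PCOLCE2 and ADAMTS14 are higher and TGM2 and P3H2 lower in BMP-on than in BMP-off libraries of the same genotype, and TLL2 is higher in BMP-on than in BMP-off libraries of KO cells.

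In KO against WT, 1 of the 48 genes was higher and 1 lower with BMP-on, LOX and TGM2, against 3.67% of all genes. With the GC correction 2 were higher and 4 lower with BMP-on, against 7.71% of all genes. With the correction and BMP-off 1 was lower, PCOLCE (-0.28, edgeR adjusted p = 0.0330), against 0.413% of all genes. Without the correction, edgeR called 0 with BMP-off and for the difference of the responses, against 0.0407% and 0.0931% of all genes. There were 8 and 2 of the 48 at an unadjusted p under 0.05, against 10.2% and 10.6% of all genes. DESeq2 and limma-voom called 0.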

How the data were processed

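RNA-seq of 12 libraries was used, 3 in each of 4 groups assigned from the sample labels (0 sample columns unused). After removal of ribosomal sequence, the authors mapped single-end reads of 50 bases with GSNAP (genome GRCh38) and obtained exon counts from HTSeqGenie. The deposited counts are raw whole numbers for 58302 Ensembl gene identifiers, of which 57532 matched a GENCODE v44 symbol and 770 did not. The deposited RPKM values were normalized by the authors and served for levels between genes and for alternatives. Gene positions are those of GENCODE v44.

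Tests used R 4.3.3 and edgeR 4.0.16 with TMM factors, filterByExpr (17188 genes kept) and robust quasi-likelihood fits of group means over all libraries (8 residual degrees of freedom). Comparisons were 5, with Benjamini-Hochberg adjustment over all tested genes. The study itself used limma-voom after quantile normalization, which was an alternative (limma 3.58.1), as was DESeq2 1.42.0. The GC correction fitted a loess curve (span 0.4) per library of log counts on transcript GC content (longest GENCODE transcript) and entered as an offset. The fits were also run on simulated libraries, in which any GC trend was repeated alike in every group. Those runs do not cover a GC trend that differs between groups, as it did here between KO BMP-off and KO BMP-on. Total counts of 19124010 to 29498000 set the counting precision, and intervals are at 95%. Replicate numbers were not taken as pairs, since they are not stated to mark a shared day or culture. Of 18 same-number pairs, 2 had a correlation above 0.1. This cannot decide whether numbers mark pairs, because libraries of different number were not compared.

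The members, gene lists and classes were chosen with earlier results of these data known. Named genes are the collagen genes called in any comparison, the 5 with the highest RPKM, tested partners of called genes, the collagen gene with the lowest p in the interaction and, per comparison, up to 3 called machinery genes in each direction. In the lists, CTAGE5 was read as MIA2. Gene length and the choice of gene model affect RPKM but not the tests within a gene.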

Additional observations from a re-analysis of the deposited data

How the results depend on the processing

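The count of called collagen genes depended on the processing in every comparison. For the BMP response in WT cells 0 were called, and the share of all genes called under each alternative is given in brackets. The count was 2 with DESeq2 (5.44%), limma-voom (4.11%), no filter on low counts (3.02%) or only the groups compared (5.99%). It was 1 with at least 10 counts in every library (4.46%). It was 4 with the GC correction, without (8.16%) or with the replicate block (7.57%). For the response in KO cells (7 called) it was 9 with DESeq2 (25.5%), limma-voom (24.3%), library size alone (22.4%) or at least 10 counts (25.6%). It was 10 with the upper quartile (22.8%) or no filter (12.4%), and 6 with only the groups compared (15.15%). It was 4 on log2(RPKM + 1) (16.4%) and on log2(RPKM + 0.1) (16.3%), and 2 on log2(RPKM + 1) with no filter (7.5%). For KO against WT with BMP-on (2 called) it was 0 on all 3 RPKM scales (0.950% to 2.12%). It was 3, with COL1A1, with only the groups compared (7.39%). With BMP-off (0 called) it was 1, COL16A1, with no filter (0.673%). Leaving out 1 library gave 0 to 2 calls for WT (2.09% to 6.39%). In KO cells it gave from 3 without KO BMP-on replicate 1 (13.2%) to 12 without KO BMP-off replicate 3 (30.4%). With BMP-on it gave 0 to 2 (1.86% to 4.93%), and with BMP-off 0 (0.0114% to 0.286%). For the interaction it gave 0 to 1, the 1 being COL1A1 without KO BMP-off replicate 3 (1.26%). An alternative chosen after seeing the data left out KO BMP-off replicates 2 and 3 together, which leaves 1 library in that group, assumed to vary like the others. It gave 3, 7, 1, 0 and 0 calls in the order above, and its 7 in KO cells were all higher. The causes of these changes were not tested.

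Of 703 log2 fold changes under alternatives, for the 7 called collagen genes in 4 comparisons, 619 kept direction and side of the threshold, 59 lost and 11 gained a call, and 14 changed sign. COL18A1 changed sign in these 4 comparisons with the GC correction, to -0.0018 and -0.00042 (with the block) in WT, -0.014 and -0.014 in KO, -0.095 and -0.099 with BMP-on and -0.012 and -0.014 for the interaction. COL18A1 with BMP-on was also -0.0036 without WT BMP-on replicate 2 and -0.040 without KO BMP-on replicate 1, from -0.040 to 0.091 over the libraries left out. COL6A1 in WT cells was -0.0085 with the GC correction and -0.0078 with the block. COL11A2 in WT cells ranged from -0.76 to 0.045 and COL12A1 in WT cells from -0.15 to 0.037 over the libraries left out. None of the sign changes was in a value past the threshold except COL18A1 in KO cells.

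The replicate block, which treats equal replicate numbers as pairs, gave 0, 7, 2, 0 and 0 calls. The shares of all genes were 3.08%, 19.9%, 2.79%, 0.0349% and 0.0175%. In KO cells COL6A2 was called in place of COL11A2. Correlations of same-number libraries ran from -0.27 to 0.30. Depth limits genes such as COL11A2 (6 to 25 counts), COL8A2 (10 to 24) and COL28A1 (9 to 17).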
